A study of Mus musculus with 21 samples.

Results

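Microglia are the resident macrophages of the brain parenchyma, and border macrophages are their relatives along the vessels and in the meninges. The 35 genes described here are used to mark these cells, and the part of their RNA from other cells was not tested. They were taken by symbol from a table of 55416 mouse gene identifiers, and every one of the 35 symbols was found there. They comprise 8 genes of the homeostatic microglial state, 13 myeloid genes that microglia share with other macrophages, 7 genes of the disease-associated microglial state and 7 genes of border macrophages. Of the 35, 34 passed the filter on low counts and were tested together with 19854 genes in all. Cst7 did not pass it.

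Microglia depend on signalling through the receptor Csf1r for survival and sense nucleotides from damaged cells through purinergic receptors such as P2ry12. Around damage, amyloid or myelin debris, microglia are known to lower homeostatic genes and to raise a set of phagocytic and lipid-handling genes through the receptor Trem2 and its adaptor Tyrobp. Border macrophages derive from the same myeloid lineage but keep scavenger receptors such as Mrc1 and Cd163 that parenchymal microglia carry at low levels or lack.

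RNA was sequenced from brains of mice at postnatal day 57. The knockout (KO) animals carried Slco1c1-iCreERT2, Pdcd10fl/fl and Aldh1l1-EGFP/Rpl10a, so that a Cre recombinase driven by the Slco1c1 promoter, which is active in brain endothelium, deletes Pdcd10 after 4-hydroxytamoxifen. Loss of Pdcd10, also called CCM3, from endothelium is a model of cerebral cavernous malformation, a disease of leaky clustered vessels. The controls, labelled Flox, carried Pdcd10fl/fl and Aldh1l1-EGFP/Rpl10a without the Cre. Both genotypes therefore carry the floxed Pdcd10 alleles and the tagged ribosomal protein in Aldh1l1-expressing cells, that is, mainly astrocytes. The drug was given at postnatal day 1 as 50 µg by intragastric injection. The labels do not settle whether the Cre-negative controls were injected too, and they name non-injected animals with Cre as further controls without saying which samples these are. Animals breathed 21% oxygen (normoxia) or 12% oxygen for 7 days (hypoxia). Counts were analysed for 19 of 21 labelled samples, namely 4 Flox normoxia, 4 KO normoxia, 4 Flox hypoxia (replicates 3 to 6) and 7 KO hypoxia libraries. Flox hypoxia replicates 1 and 2 are not analysed here. The design text describes RNA pulled down on tagged astrocyte ribosomes, whereas the extraction text describes total RNA from brain tissue, so macrophage RNA may reach these libraries either as part of the tissue or as carry-over, and these cannot be told apart. In either case, more cells of a type and more RNA per cell cannot be told apart.

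The libraries held 45399320 to 65261791 counts each. Pdcd10 measured 19.6 to 23.5 CPM (count scaled to library size and composition) in Flox normoxia and 24.6 to 30.7 CPM in Flox hypoxia. In the knockouts it measured 7.74 to 10.3 CPM at normoxia and 6.98 to 12.2 CPM at hypoxia, below every control. The astrocyte enzyme Aldh1l1 had a median of 131 RPKM (range 92.9 to 187), where RPKM is the deposited count per kilobase of gene scaled to library size and allows levels to be compared between genes. KO hypoxia replicates 1 to 3 stood apart from the other KO hypoxia libraries. The summed CPM of 8 mitochondrially encoded genes was 357 to 588 in these 3 and 26.4 to 53.9 in replicates 4 to 7, against 25.8 to 47.1 in Flox hypoxia. At normoxia this sum was 53.9 to 177 CPM in the knockouts and 20.9 to 29.3 CPM in the controls, without overlap. None of the 8 genes was called there with all libraries, and all 8 were called higher without KO hypoxia replicates 1 to 3. The part of this shift in the members' results was not tested. In KO hypoxia replicates 1 to 3, summed neuronal markers were also higher, at 2425 to 3323 CPM against 860 to 1986 CPM. Results at hypoxia are therefore also given without these 3 libraries. All samples are labelled male, yet 5 libraries (Flox normoxia 3 and 4, KO hypoxia 6 and 7, Flox hypoxia 6) had little Y-linked RNA. Results are also given with this difference as a covariate and with the 5 libraries left out.

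Transcription in macrophages is known to depend on the factor PU.1, encoded by Spi1, whose preferred letters are GAGGAAG. RefSeq promoters (build GRCm38.p6, 250 bases before to 50 after a gene start) were found for 30 of the 35 members, with 38 promoters in all. Letters GAGGAAG on either strand occurred in 16 of the 38 (42.1%), which belong to 14 genes, against 13.6% of all 32851 promoters of the same length. No such match shared a base with the other letters searched, which were TGANTCA (AP-1) and CACGTG (MITF and TFE). A match is a description of the letters and not a measured binding site. The 4 members shown were picked for promoters with GAGGAAG or its reverse complement (capitals) and for being higher in knockouts at both oxygen levels. They are followed by P2ry12, a near neighbour of P2ry13 on the same chromosome whose window holds none and which was called higher at hypoxia. Ptprc, Clec7a and Lgals3 were higher at both levels without a match. Axl, Cbr2, F13a1 and Pf4 held a match and were called higher at neither. Whether the letters go with the knockout difference was not tested. P2ry13 lies at chr3:59210833-59211132 on the minus strand, Trem2 at chr17:48346151-48346450 on the plus strand, Itgam at chr7:128062390-128062689 on the plus strand, Ctss at chr3:95526536-95526835 on the plus strand and P2ry12 at chr3:59262936-59263235 on the minus strand.
P2ry13: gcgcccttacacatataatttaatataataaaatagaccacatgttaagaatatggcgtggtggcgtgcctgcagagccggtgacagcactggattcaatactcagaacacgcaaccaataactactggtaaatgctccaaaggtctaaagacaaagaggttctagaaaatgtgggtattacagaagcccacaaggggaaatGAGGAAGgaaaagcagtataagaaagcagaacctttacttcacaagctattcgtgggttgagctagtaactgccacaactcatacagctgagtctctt
Trem2: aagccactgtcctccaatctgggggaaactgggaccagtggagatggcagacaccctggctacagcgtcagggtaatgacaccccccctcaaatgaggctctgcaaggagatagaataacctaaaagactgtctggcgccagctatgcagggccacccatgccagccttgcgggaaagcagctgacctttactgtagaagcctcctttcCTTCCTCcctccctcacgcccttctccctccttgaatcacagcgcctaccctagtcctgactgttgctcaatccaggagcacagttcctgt
Itgam: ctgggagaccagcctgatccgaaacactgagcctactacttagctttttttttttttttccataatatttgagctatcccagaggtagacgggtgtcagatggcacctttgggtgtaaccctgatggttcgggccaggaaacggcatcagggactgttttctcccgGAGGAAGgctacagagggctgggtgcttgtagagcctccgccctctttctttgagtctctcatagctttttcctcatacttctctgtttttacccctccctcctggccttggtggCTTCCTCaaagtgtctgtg
Ctss: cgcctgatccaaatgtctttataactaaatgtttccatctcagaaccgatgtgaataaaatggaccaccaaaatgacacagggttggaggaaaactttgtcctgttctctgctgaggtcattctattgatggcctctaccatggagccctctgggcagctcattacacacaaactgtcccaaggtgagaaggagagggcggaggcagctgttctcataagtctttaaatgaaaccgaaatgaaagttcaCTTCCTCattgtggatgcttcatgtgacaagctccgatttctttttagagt
P2ry12: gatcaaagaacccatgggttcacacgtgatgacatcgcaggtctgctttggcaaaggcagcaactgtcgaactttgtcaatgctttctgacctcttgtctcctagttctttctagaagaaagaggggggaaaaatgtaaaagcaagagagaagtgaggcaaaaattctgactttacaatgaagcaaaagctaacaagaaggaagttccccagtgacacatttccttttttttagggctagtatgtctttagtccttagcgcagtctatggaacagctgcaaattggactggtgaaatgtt

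The matched letters begin 48 bases before the start in P2ry13, 41 bases before it in Trem2 and 1 base before it in Ctss. Itgam holds a match 84 bases before its start and another beginning at base 32 after it. TGANTCA occurred in 5 member promoters, of Cd68, Cst7, Itgax, Ms4a7 and Trem2, against 7.81% of all. CACGTG occurred in those of P2ry12 and Siglech, against 7.15% of all.

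The members spanned a wide range of levels per gene length. Spp1 had a median over the 19 libraries of 42.2 RPKM (range 17.8 to 84.7), Cd9 of 36.9 RPKM (range 24.5 to 51.4), Axl of 36.1 RPKM (range 15.4 to 46.0) and Sall1 of 27.0 RPKM (range 16.4 to 34.8). These 4 stood well above the other 31 members, of which Ctss was highest at 3.77 RPKM (range 1.50 to 10.8), followed by Csf1r at 3.45 RPKM (range 1.46 to 6.91) and Lgals3 at 3.27 RPKM (range 1.85 to 9.39). The ranges of Ctss, Csf1r and Lgals3 overlapped widely, so their order is not resolved. At the bottom, Clec7a had a median of 0.0632 RPKM (range 0 to 0.243), Ptprc of 0.0241 RPKM (range 0.00377 to 0.114) and Itgax of 0.0235 RPKM (range 0 to 0.108). Counts of at least 1 in every library were found for 32 members, the exceptions being Itgax with 15 libraries, Clec7a with 18 and Cst7 with 8.

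**Figure D1:**
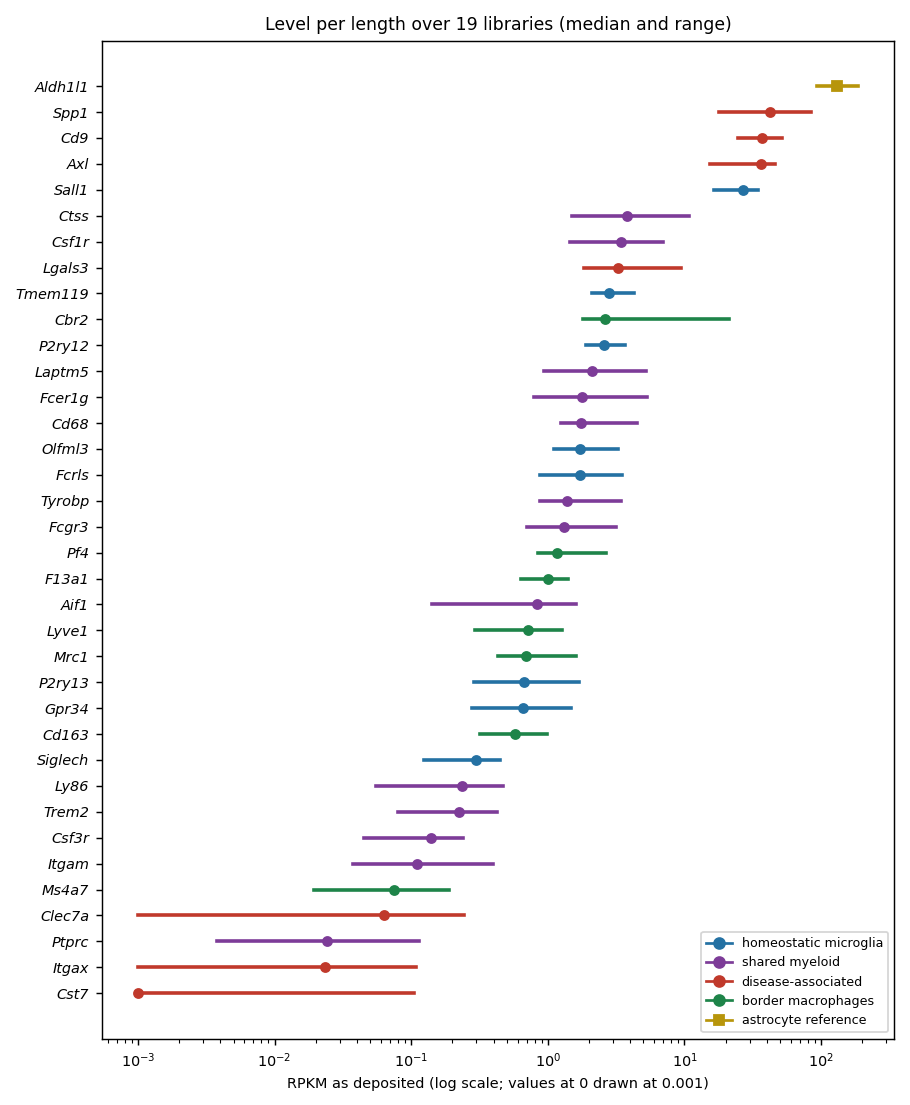
Deposited RPKM of each member, and of the astrocyte gene Aldh1l1 for reference, on a log axis as the median (point) and range (line) over 19 libraries, coloured by gene group, with values at 0 drawn at 0.001. Spp1, Cd9, Axl and Sall1 sit above 15 RPKM in every library, and the remaining members have medians of 3.77 RPKM or less.

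Knockout and control were compared at each oxygen level to ask how loss of endothelial Pdcd10 goes with macrophage transcripts. At normoxia, 16 of the 34 tested members rose in the knockouts and none fell, where a call is an adjusted p below 0.05 from edgeR's quasi-likelihood test over all 19854 genes. Of all genes tested, 12.2% were called, 6.9% as higher. The median log2 fold change of the members was 0.86, against -0.01 for all genes, and 31 of 34 were positive. In 14 members every knockout library exceeded every control, as did 9.82% of all genes, and in 1 (Sall1) every knockout library was below every control, as in 9.84% of all genes. At hypoxia, 16 members rose and 2 fell (Olfml3 and Axl), against 19.7% of all genes called, 10.4% as higher and 9.37% as lower. The members' median was 0.54 with 25 of 34 positive, against 0.01 for all genes, and 13 members separated completely upward, against 5.37% of all genes, and 2 downward (Olfml3 and Axl), against 6.52%. Both oxygen levels called the same 10 members higher: P2ry13, Csf1r, Trem2, Ctss, Itgam, Laptm5, Ptprc, Fcgr3, Clec7a and Lgals3.

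These counts depended on particular libraries. Without KO hypoxia replicates 1 to 3, 8 members were called at hypoxia, 7 higher and 1 lower, while 8.7% of all genes were called. At normoxia 16 were called in that fit, 15 higher and Sall1 lower, with 17.8% of all genes called. With low Y-linked RNA as a covariate, 11 members were called at normoxia, with 7.16% of all genes, and 18 at hypoxia, with 19.4% of all genes. With the 5 low libraries left out, 2 Flox normoxia libraries remained and Ptprc alone was called at normoxia (log2 fold change 2.57), as were 1.25% of all genes. In that fit 6 members and 7.17% of all genes were called at hypoxia. Leaving out single libraries moved the normoxia count from 9, without KO normoxia replicate 3 (5.57% of all genes called), to 22, without KO normoxia replicate 2 (15.6% of all genes called). KO normoxia replicate 3 had the highest value of its group for 24 of 34 members, and replicate 2 the lowest for 19.

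**Figure D2:**
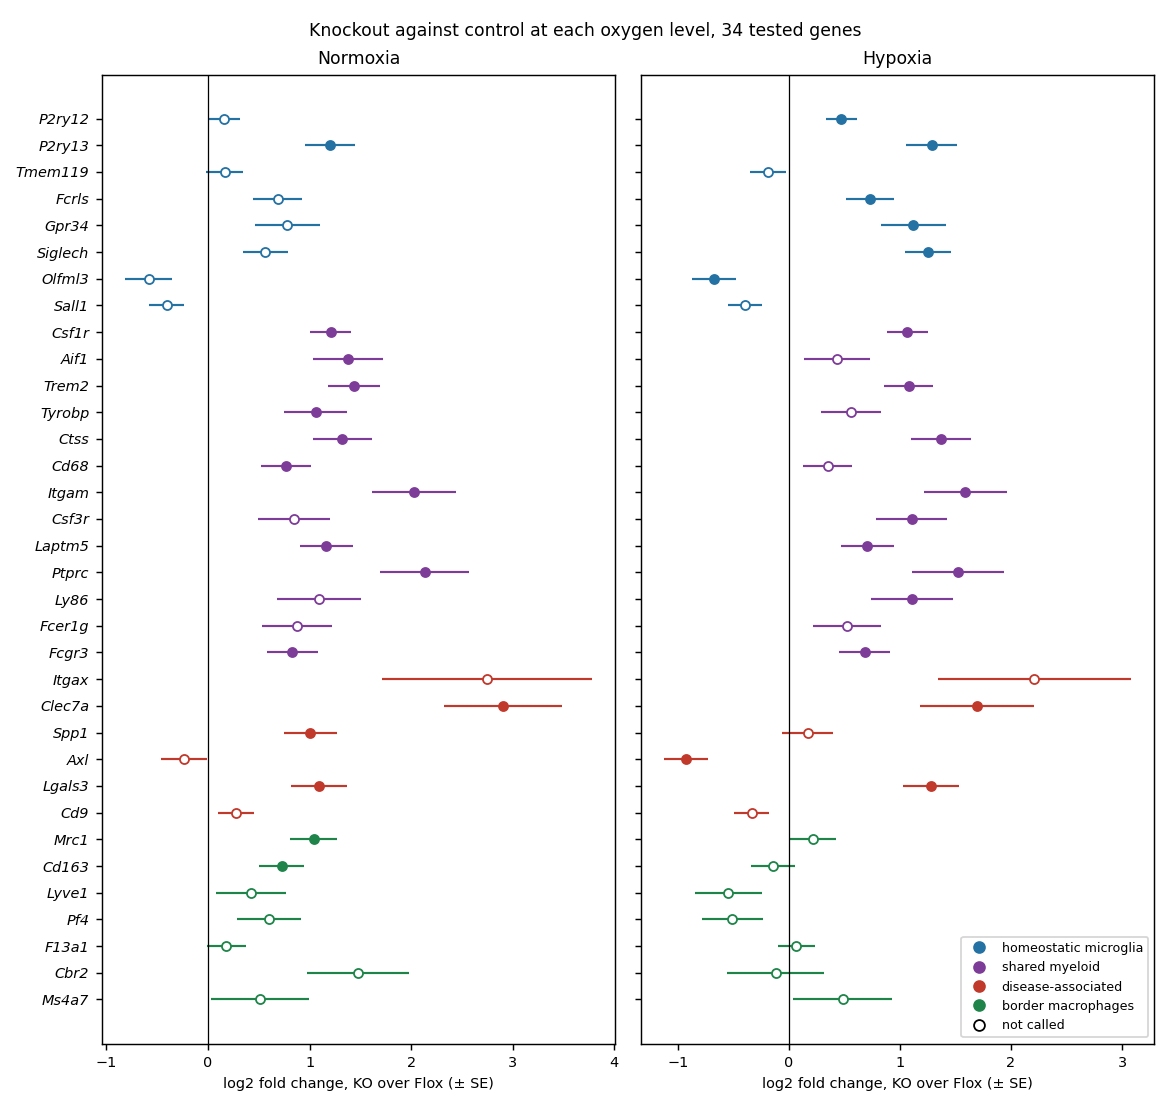
Log2 fold change of knockout over control for the 34 tested members at normoxia (left) and hypoxia (right), with the standard error as a bar, coloured by gene group, and with filled points for called values. The 13 shared myeloid genes are above 0 in both panels, whereas the 7 border macrophage genes are above 0 at normoxia and lie on both sides of 0 at hypoxia.

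Among the homeostatic genes, 1 of 8 rose at normoxia (P2ry13) with a median log2 fold change of 0.36, and 5 of 8 rose at hypoxia while 1 fell, with a median of 0.60. Of all genes, 6.9% were called higher and 5.27% lower at normoxia, and 10.4% higher and 9.37% lower at hypoxia. A single call among 8 genes is not set apart from these shares. P2ry12, the purinergic receptor that guides microglial processes towards ATP, measured 7.21, 5.32, 6.12 and 5.81 CPM in Flox normoxia replicates 1 to 4 and 6.32, 5.10, 9.06 and 6.82 CPM in KO normoxia replicates 1 to 4. Flox hypoxia replicates 3 to 6 held 5.19, 4.91, 6.48 and 6.70 CPM, and KO hypoxia had a minimum, median and maximum of 6.53, 8.30 and 8.83 CPM. The genotypes overlapped at normoxia and, through a single knockout library, at hypoxia. Log2 fold changes were 0.16 ± 0.15 (adjusted p = 0.552) at normoxia and 0.47 ± 0.14 (adjusted p = 0.0249) at hypoxia. The call at hypoxia was lost without Flox hypoxia replicate 3 (0.42) or 4 (0.40), and without KO hypoxia replicates 1 to 3 (0.44, adjusted p = 0.113).

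P2ry13, another ADP receptor, was the homeostatic gene that rose at both oxygen levels. Its libraries held 1.39, 1.15, 1.01 and 1.17 CPM in Flox normoxia and 1.88, 1.64, 4.24 and 3.18 CPM in KO normoxia. At hypoxia, Flox libraries held 0.832, 0.736, 0.865 and 1.16 CPM and KO libraries a minimum, median and maximum of 1.68, 2.23 and 2.58 CPM. No control library reached a knockout one at either oxygen level. The log2 fold change was 1.21 ± 0.25 (adjusted p = 0.00511) at normoxia and 1.29 ± 0.23 (adjusted p = 0.00108) at hypoxia, and no single library left out ended either call. Without KO hypoxia replicates 1 to 3 the value at hypoxia was 1.22, still called.

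Tmem119, a transmembrane protein widely used to mark microglia, held 5.73, 8.34, 7.28 and 6.38 CPM in Flox normoxia and 5.56, 6.84, 9.84 and 8.79 CPM in KO normoxia. In Flox hypoxia it held 8.19, 6.08, 8.25 and 6.10 CPM, and in KO hypoxia a minimum, median and maximum of 4.91, 6.17 and 7.42 CPM. The groups overlapped throughout. Its log2 fold changes were 0.16 ± 0.18 (adjusted p = 0.606) at normoxia and -0.19 ± 0.16 (adjusted p = 0.432) at hypoxia. The ratio of P2ry13 to P2ry12 within a library ran from 0.165 to 0.216 in Flox normoxia, 0.297 to 0.468 in KO normoxia, 0.133 to 0.173 in Flox hypoxia and 0.227 to 0.305 in KO hypoxia. No control ratio reached a knockout ratio at the same oxygen level.

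Siglech, a sialic-acid-binding lectin, held 1.06, 0.884, 0.487 and 0.538 CPM in Flox normoxia and 1.03, 1.02, 1.24 and 1.12 CPM in KO normoxia, where Flox replicate 1 lay among the knockouts. Flox hypoxia libraries held 0.636, 0.456, 0.432 and 0.545 CPM and KO hypoxia libraries a minimum, median and maximum of 1.02, 1.20 and 1.42 CPM, with every knockout above every control. The log2 fold change was 0.57 ± 0.22 (adjusted p = 0.0957) at normoxia, or 0.79 and called without Flox normoxia replicate 1. At hypoxia it was 1.25 ± 0.20 (adjusted p = 0.000516), and 1.21 without KO hypoxia replicates 1 to 3, still called.

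The lysophosphatidylserine receptor gene Gpr34 held 0.888, 0.740, 1.27 and 0.890 CPM in Flox normoxia and 1.77, 0.682, 2.19 and 1.89 CPM in KO normoxia. Controls at hypoxia held 1.16, 0.859, 0.916 and 0.598 CPM, and knockouts a minimum, median and maximum of 1.35, 1.91 and 2.89 CPM. KO normoxia replicate 2 lay below every control, whereas at hypoxia the groups did not overlap. Log2 fold changes were 0.78 ± 0.32 (adjusted p = 0.115) at normoxia, 1.04 and called without that replicate, and 1.12 ± 0.29 (adjusted p = 0.0132) at hypoxia. With replicate numbers as pairs the value at hypoxia was 0.99 (adjusted p = 0.0550), and without KO hypoxia replicates 1 to 3 it was 1.02 (adjusted p = 0.0572).

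Fcrls, an Fc-receptor-like gene of mouse microglia, rose at hypoxia with a log2 fold change of 0.73 ± 0.22 (adjusted p = 0.0257). This call was lost without Flox hypoxia replicate 4 (0.59), 5 (0.70) or 6 (0.74) and without KO hypoxia replicates 1 to 3 (0.68). At normoxia it was 0.69 ± 0.24 (adjusted p = 0.0676), and 0.83 and called without KO normoxia replicate 2. Olfml3, a secreted olfactomedin-like protein, went the other way. Its libraries held 15.8, 11.9, 18.3 and 10.9 CPM in Flox hypoxia against a minimum, median and maximum of 6.83, 9.54 and 10.7 CPM in KO hypoxia, without overlap, for a log2 fold change of -0.67 ± 0.20 (adjusted p = 0.0247). The call was lost without Flox hypoxia replicate 3 (-0.62) or 5 (-0.53) and without KO hypoxia replicates 1 to 3 (-0.77, adjusted p = 0.0574). At normoxia its value was -0.59 ± 0.23 (adjusted p = 0.0986), called without KO normoxia replicate 4 (-0.76) or Flox normoxia replicate 1 (-0.77).

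Sall1, a zinc-finger repressor that maintains microglial identity, gave -0.41 ± 0.17 (adjusted p = 0.133) at normoxia and -0.40 ± 0.15 (adjusted p = 0.0727) at hypoxia. It ranged over 150.3 to 188 CPM in Flox normoxia and 112 to 149 CPM in KO normoxia. At hypoxia it ranged over 139 to 177 CPM in Flox and 81.9 to 148 CPM in KO libraries, of which replicates 1 to 3 held 81.9 to 92.4 CPM and replicates 4 to 7 held 125 to 148 CPM. At normoxia it was called lower without KO hypoxia replicates 1 to 3 (-0.40, adjusted p = 0.0160). Without replicates 1 to 3 its hypoxia log2 fold change was -0.15, and without KO hypoxia replicate 4, 5 or 7 it was -0.46, -0.45 or -0.45 and called. Per length, Sall1 was the homeostatic gene with the highest level, and its part from cells other than microglia was not tested.

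The 13 shared myeloid genes held most of the calls at normoxia. All 13 had positive log2 fold changes at both oxygen levels, 10 were called higher at normoxia with a median of 1.16, and 9 at hypoxia with a median of 1.07. Of all genes, 6.9% were called higher at normoxia and 10.4% at hypoxia. Their summed level was 24.4 to 37.1 CPM in Flox normoxia, 42.6 to 103 CPM in KO normoxia, 23.0 to 33.2 CPM in Flox hypoxia and 47.3 to 65.5 CPM in KO hypoxia. When KO hypoxia replicates 1 to 3 were left out, the KO hypoxia sum still ran from 47.3 to 65.5 CPM.

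**Figure D3:**
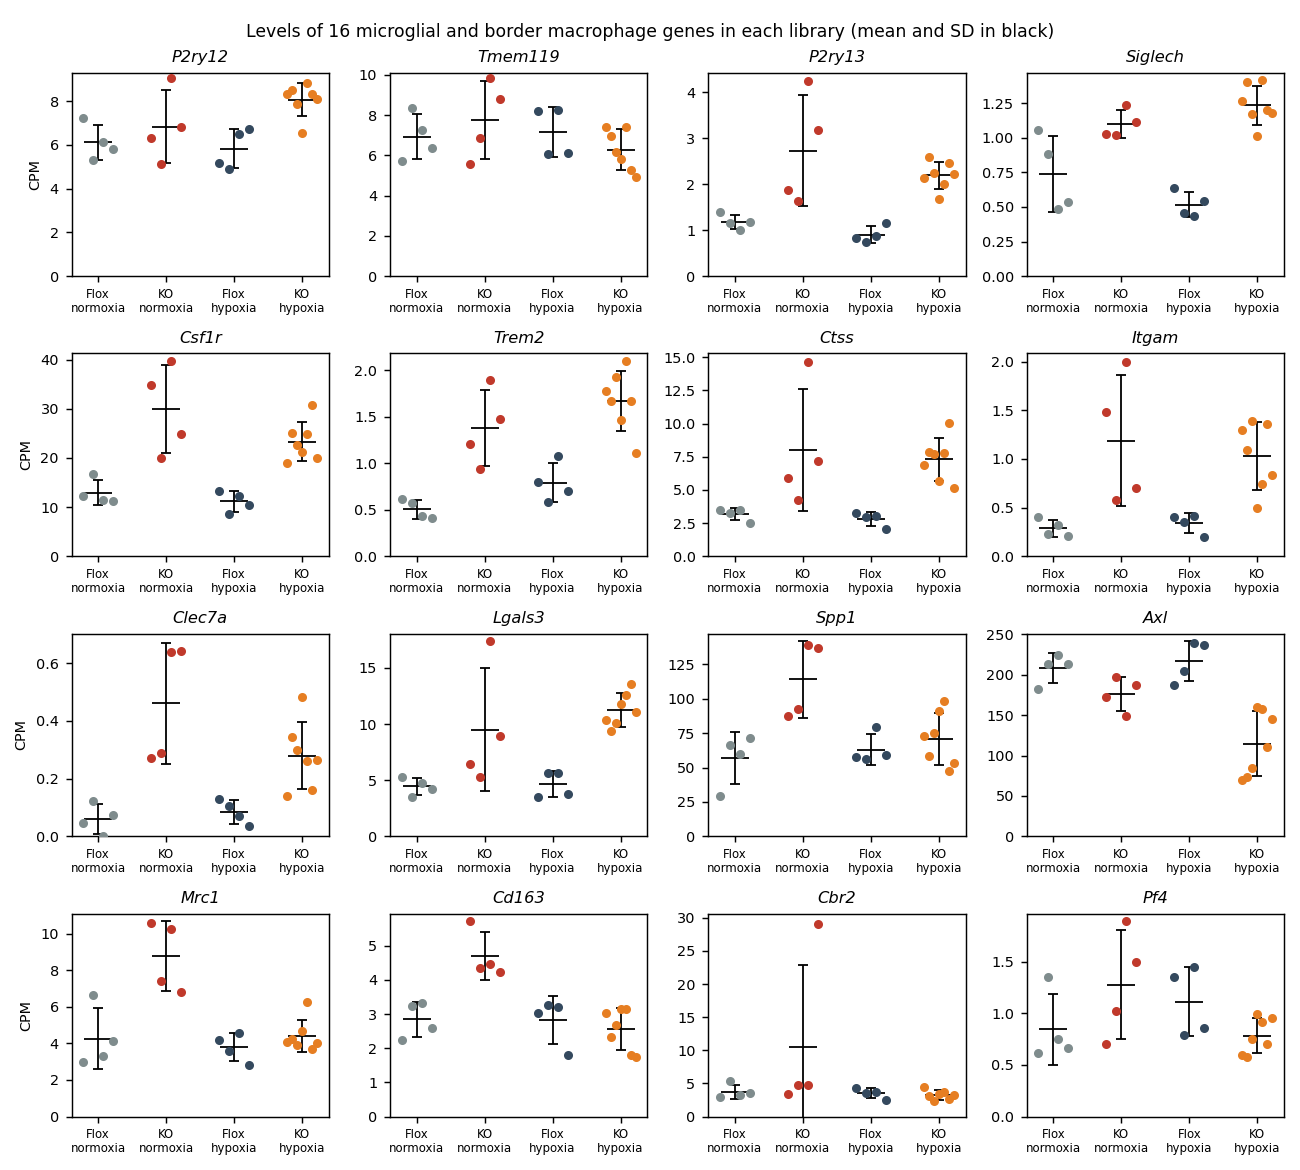
CPM on linear axes from 0 in each library for 16 members in the 4 groups, with every point a library and black bars for the mean and SD. For Csf1r, Trem2, Ctss and P2ry13, all knockout points lie above all control points of the same oxygen level, while Mrc1 and Cd163 separate at normoxia and overlap at hypoxia.

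Csf1r, the receptor for the survival factors CSF1 and IL34, held 12.3, 16.7, 11.5 and 11.2 CPM in Flox normoxia and 34.8, 20.1, 39.7 and 24.9 CPM in KO normoxia. Under hypoxia, Flox libraries held 13.3, 8.61, 12.3 and 10.3 CPM and KO hypoxia libraries a minimum, median and maximum of 18.9, 22.6 and 30.7 CPM. Knockouts and controls did not overlap at either oxygen level. Mean levels were 12.9 ± 2.57 CPM (SD, n = 4) against 29.9 ± 8.96 CPM (SD, n = 4) at normoxia. The log2 fold change was 1.21 ± 0.20 (adjusted p = 0.00129) at normoxia and 1.07 ± 0.18 (adjusted p = 0.000874) at hypoxia. No single library left out ended either call, and without KO hypoxia replicates 1 to 3 the latter was 1.11. The ratio of Csf1r to P2ry12 within a library had a median of 1.90 (range 1.70 to 3.14) in Flox normoxia and 4.16 (range 3.66 to 5.50) in KO normoxia. At hypoxia it had a median of 1.83 (range 1.54 to 2.57) in Flox and 2.87 (range 2.27 to 3.70) in KO libraries. This ratio was separate between genotypes at normoxia and overlapped at hypoxia.

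Trem2, a receptor for lipids and lipoproteins, held 0.612, 0.575, 0.431 and 0.408 CPM in Flox normoxia and 1.21, 0.938, 1.90 and 1.48 CPM in KO normoxia. At 12% oxygen it held 0.799, 0.579, 1.07 and 0.704 CPM in Flox libraries, and in KO libraries a minimum, median and maximum of 1.10, 1.67 and 2.09 CPM. The groups were separate at both oxygen levels, at hypoxia by a narrow margin. Its log2 fold changes were 1.44 ± 0.25 (adjusted p = 0.00180) and 1.08 ± 0.22 (adjusted p = 0.00300) at normoxia and hypoxia, and 1.00 at hypoxia without KO replicates 1 to 3, still called. Tyrobp, which carries the signal of Trem2 into the cell, held 0.643, 0.884, 0.599 and 0.668 CPM in Flox normoxia and 0.975, 0.785, 2.28 and 1.80 CPM in KO normoxia. Hypoxic controls held 0.652, 0.842, 1.33 and 0.739 CPM and KO hypoxia libraries a minimum, median and maximum of 0.834, 1.35 and 1.64 CPM. Tyrobp overlapped between genotypes at both oxygen levels. It rose at normoxia with 1.06 ± 0.31 (adjusted p = 0.0318) and gave 0.56 ± 0.27 (adjusted p = 0.154) at hypoxia. The normoxia call was lost without KO normoxia replicate 3 (0.76) or 4 (0.95) and without Flox normoxia replicate 1 (1.02), 3 (1.00) or 4 (1.04). With Y-linked RNA as a covariate it was 0.87, not called.

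Ctss, a lysosomal cysteine protease of antigen-presenting cells, held 3.51, 3.25, 3.50 and 2.50 CPM in Flox normoxia and 5.92, 4.21, 14.7 and 7.20 CPM in KO normoxia. Hypoxic Flox libraries held 3.26, 2.93, 3.03 and 2.08 CPM and KO hypoxia libraries a minimum, median and maximum of 5.14, 7.68 and 10.1 CPM, and the genotypes did not overlap. Log2 fold changes were 1.32 ± 0.29 (adjusted p = 0.00808) at normoxia and 1.37 ± 0.27 (adjusted p = 0.00224) at hypoxia. KO normoxia replicate 3 set much of the size at normoxia, since without it the value was 0.85, still called. Without KO hypoxia replicates 1 to 3 the value at hypoxia was 1.34, also called.

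Ptprc encodes CD45, a phosphatase of blood and immune cells that microglia carry at low levels. It held 0.122, 0.267, 0.318 and 0.334 CPM in Flox normoxia and 1.06, 0.870, 2.07 and 0.549 CPM in KO normoxia. In Flox hypoxia it held 0.277, 0.281, 0.173 and 0.0704 CPM, and in KO hypoxia a minimum, median and maximum of 0.345, 0.590 and 0.914 CPM. The groups were separate at both oxygen levels. The log2 fold changes were 2.13 ± 0.44 (adjusted p = 0.00513) and 1.52 ± 0.41 (adjusted p = 0.0165). At hypoxia the call was lost without Flox replicate 5 (1.46) or 6 (1.25) and with replicate pairs (1.62, adjusted p = 0.0632), and held without KO replicates 1 to 3 (1.59).

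Itgam, the integrin CD11b of myeloid cells, held 0.398, 0.226, 0.318 and 0.204 CPM in Flox normoxia and 1.48, 0.580, 1.99 and 0.701 CPM in KO normoxia. At hypoxia, Flox libraries held 0.408, 0.351, 0.415 and 0.193 CPM and KO libraries a minimum, median and maximum of 0.500, 1.09 and 1.39 CPM. Every knockout exceeded every control at the same oxygen level. The log2 fold changes were 2.03 ± 0.41 (adjusted p = 0.00488) and 1.59 ± 0.37 (adjusted p = 0.00720), and without KO hypoxia replicates 1 to 3 the latter was 1.32 (adjusted p = 0.0581).

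Laptm5, a lysosomal membrane protein of blood-lineage cells, rose at normoxia by a log2 fold change of 1.16 ± 0.26 (adjusted p = 0.00930) and at hypoxia by 0.71 ± 0.24 (adjusted p = 0.0429). Fcgr3, a low-affinity receptor for antibodies, gave 0.83 ± 0.25 (adjusted p = 0.0370) and 0.68 ± 0.23 (adjusted p = 0.0417). Fcgr3 belongs to a family of similar receptors, and how shared reads were counted is unknown here. At hypoxia, both calls lay near the threshold. Laptm5 lost its call in 11 of 19 fits that each left out 1 library, with values of 0.56 to 0.89 over the 19, the call staying without KO normoxia replicate 1, 2 or 3, Flox normoxia replicate 2 or 4, KO hypoxia replicate 1 or 4, or Flox hypoxia replicate 5. Fcgr3 lost its call in 10 of the 19, with values of 0.54 to 0.84, the call staying without KO normoxia replicate 1, 2 or 3, Flox normoxia replicate 1 or 3, KO hypoxia replicate 4, 5 or 6, or Flox hypoxia replicate 5. Without KO hypoxia replicates 1 to 3 they measured 0.80 and 0.46, neither called, and with replicate pairs Fcgr3 measured 0.48 (adjusted p = 0.0771). At normoxia Fcgr3 kept its call without KO replicate 2 but lost it without any other single normoxia library, down to 0.58 without KO normoxia replicate 3, and with Y-linked RNA as a covariate (0.73).

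Aif1, which encodes IBA1, the usual histological marker of microglia, was called at normoxia (1.38 ± 0.35 (adjusted p = 0.0167)) and gave 0.44 ± 0.30 (adjusted p = 0.314) at hypoxia. It lost the call without KO normoxia replicate 3 (1.05) or Flox normoxia replicate 3 (1.20). Its controls ranged over 0.223 to 0.949 CPM at normoxia and 0.709 to 1.35 CPM at hypoxia, while knockouts ranged over 1.10 to 2.44 and 1.35 to 1.72 CPM. Cd68, a lysosomal glycoprotein raised in phagocytes, gave 0.77 ± 0.25 (adjusted p = 0.0479) and 0.35 ± 0.22 (adjusted p = 0.274). The normoxia call of Cd68 stayed only without KO normoxia replicate 2 or KO hypoxia replicate 5 or 7 and was lost in the other 16 single omissions, with values of 0.41 (without KO normoxia replicate 3) to 0.98. It was also lost with Y-linked RNA as a covariate (0.68) and without KO hypoxia replicates 1 to 3 (0.78, adjusted p = 0.0508).

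Csf3r, the receptor of granulocyte colony-stimulating factor, and Ly86, a partner of a Toll-like receptor family member, were called at hypoxia with 1.11 ± 0.32 (adjusted p = 0.0223) and 1.11 ± 0.37 (adjusted p = 0.0422). Csf3r lost its call without Flox hypoxia replicate 6 (0.93), with replicate pairs (1.01, adjusted p = 0.0881) and without KO hypoxia replicates 1 to 3 (1.10). Ly86 lost its call in 9 of 19 single omissions (Flox normoxia replicate 3, KO hypoxia replicates 1, 2, 3 and 6, and every Flox hypoxia replicate), with values of 0.92 to 1.25, and without KO hypoxia replicates 1 to 3 (0.95). At normoxia they gave 0.85 ± 0.35 (adjusted p = 0.122) and 1.09 ± 0.42 (adjusted p = 0.0902). Without KO normoxia replicate 2 these were 1.06 and 1.31 and called, as was Ly86 without Flox normoxia replicate 1 (1.57). Fcer1g, a signalling chain of antibody receptors, gave 0.88 ± 0.34 (adjusted p = 0.0982) and 0.52 ± 0.31 (adjusted p = 0.241), and was called at normoxia without Flox normoxia replicate 2 (1.20).

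Of the 6 tested disease-associated genes, 3 rose at normoxia (Clec7a, Spp1 and Lgals3) with a median log2 fold change of 1.05. At hypoxia 2 rose (Clec7a and Lgals3) and Axl fell, with a median of 0.72. Of all genes, 6.9% were called higher at normoxia, and 10.4% higher and 9.37% lower at hypoxia. Lgals3, which encodes galectin-3, held 5.27, 3.53, 4.79 and 4.19 CPM in Flox normoxia and 6.46, 5.29, 17.4 and 8.94 CPM in KO normoxia. Flox hypoxia libraries held 3.47, 5.65, 5.62 and 3.82 CPM and KO hypoxia libraries a minimum, median and maximum of 9.36, 11.1 and 13.6 CPM. Separation was narrow at normoxia and wide at hypoxia. Log2 fold changes were 1.09 ± 0.28 (adjusted p = 0.0171) and 1.28 ± 0.25 (adjusted p = 0.00245). The normoxia call was lost without KO replicate 3 (0.63) or Flox replicate 2 (1.00), while at hypoxia the value without KO replicates 1 to 3 was 1.40, still called.

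Clec7a, the beta-glucan receptor Dectin-1, was sparse. It held 0.0459, 0.123, 0 and 0.0742 CPM in Flox normoxia and 0.271, 0.290, 0.639 and 0.644 CPM in KO normoxia. At hypoxia it held 0.130, 0.105, 0.0692 and 0.0352 CPM in Flox libraries and a minimum, median and maximum of 0.140, 0.267 and 0.483 CPM in KO libraries. No control reached a knockout library at the same oxygen level, and at hypoxia the gap was small. Its fitted log2 fold changes were 2.90 ± 0.58 (adjusted p = 0.00444) and 1.69 ± 0.51 (adjusted p = 0.0279), of which the first depends on the value that the fit adds to counts near 0. The call at hypoxia was lost without Flox hypoxia replicate 4 (1.80), 5 (1.60) or 6 (1.44) and without KO hypoxia replicates 1 to 3 (1.75, adjusted p = 0.0680).

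Itgax, the integrin CD11c, held 0, 0.103, 0.0374 and 0 CPM in Flox normoxia and 0.108, 0, 0.445 and 0.379 CPM in KO normoxia. Under hypoxia, Flox libraries held 0.130, 0.0351, 0.0346 and 0 CPM and KO hypoxia libraries a minimum, median and maximum of 0.113, 0.196 and 0.497 CPM. The groups overlapped at normoxia, since KO normoxia replicate 2 was at 0, and at hypoxia, since Flox replicate 3 lay above the lowest KO libraries. Fitted log2 fold changes of 2.75 ± 1.03 (adjusted p = 0.0875) and 2.21 ± 0.87 (adjusted p = 0.0801) did not pass the threshold, and without KO normoxia replicate 2 they were 3.17 and 2.21 and called. Cst7, which encodes cystatin F, an inhibitor of lysosomal proteases, had no count in any Flox normoxia library, which allows up to 0.0459 to 0.0616 CPM at 3 counts per library. KO normoxia libraries held 0, 0.0341, 0.0775 and 0.0379 CPM, Flox hypoxia libraries 0, 0.0175, 0 and 0.106 CPM and KO hypoxia libraries a minimum, median and maximum of 0, 0 and 0.0952 CPM. A difference in Cst7 was not detectable at this depth. This limit covers counting error only.

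Spp1 encodes osteopontin, a secreted phosphoprotein. It held 29.3, 66.6, 59.9 and 71.1 CPM in Flox normoxia and 87.7, 92.5, 139 and 137 CPM in KO normoxia, without overlap. Controls at hypoxia held 57.8, 55.9, 79.4 and 59.4 CPM, and knockouts a minimum, median and maximum of 47.6, 72.9 and 98.1 CPM, with overlap. Log2 fold changes were 1.01 ± 0.26 (adjusted p = 0.0192) and 0.17 ± 0.23 (adjusted p = 0.639). The normoxia call was lost without KO normoxia replicate 3 (0.90) and with Y-linked RNA as a covariate (0.91, adjusted p = 0.0673). Per length, Spp1 had the highest median of all members, and its part from cells other than microglia was not tested.

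Axl, a receptor tyrosine kinase that recognises dying cells through the bridging proteins Gas6 and Pros1, was the other member lower at hypoxia. It held 182, 213, 224 and 213 CPM in Flox normoxia and 173, 197, 149 and 188 CPM in KO normoxia, with overlap. Hypoxic controls held 187, 205, 239 and 236 CPM and KO hypoxia libraries a minimum, median and maximum of 69.2, 110.5 and 160.1 CPM, without overlap. The lowest were KO hypoxia replicates 1 to 3, at 69.2 to 84.0 CPM, against 110 to 160 CPM in replicates 4 to 7. The log2 fold change was -0.24 ± 0.23 (adjusted p = 0.541) at normoxia and -0.92 ± 0.20 (adjusted p = 0.00441) at hypoxia, and without KO hypoxia replicates 1 to 3 it was -0.60 (adjusted p = 0.00492). In the same split, the summed CPM of 9 astrocyte markers was 16940 to 18030 in replicates 1 to 3 and 21306 to 28423 in replicates 4 to 7, and its part in the Axl result was not tested. Cd9, a tetraspanin, gave 0.28 ± 0.18 (adjusted p = 0.335) and -0.34 ± 0.16 (adjusted p = 0.138).

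Border macrophage genes were called higher in the knockouts at normoxia only for a minority, and at hypoxia for none. At normoxia all 7 had positive log2 fold changes, with a median of 0.60. Of them, 2 were called higher (Mrc1 and Cd163), as were 6.9% of all genes. At hypoxia none was called, at unadjusted p below 0.05 none passed either, and the median was -0.12. Their summed level was 16.3 to 28.8 CPM in Flox normoxia, 29.1 to 52.0 CPM in KO normoxia, 13.8 to 25.6 CPM in Flox hypoxia and 16.4 to 24.1 CPM in KO hypoxia. The 52.0 CPM of KO normoxia replicate 4 include 29.1 CPM of Cbr2. The separation of this sum at normoxia depends on Cbr2 in that library.

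Mrc1 encodes CD206, the mannose receptor. Its libraries held 2.99, 6.64, 3.31 and 4.14 CPM in Flox normoxia and 10.6, 7.42, 10.3 and 6.84 CPM in KO normoxia. Hypoxic Flox libraries held 4.21, 3.61, 4.56 and 2.81 CPM and KO hypoxia libraries a minimum, median and maximum of 3.72, 4.09 and 6.28 CPM. KO normoxia thus lay above all Flox normoxia and all KO hypoxia libraries, and the genotypes overlapped at hypoxia. The knockout effect was 1.04 ± 0.23 (adjusted p = 0.00862) at normoxia and 0.22 ± 0.21 (adjusted p = 0.491) at hypoxia. Within a library, the ratio of Mrc1 to Csf1r ran from 0.243 to 0.397 in Flox normoxia, 0.258 to 0.370 in KO normoxia, 0.273 to 0.420 in Flox hypoxia and 0.121 to 0.253 in KO hypoxia, so that KO hypoxia lay below every control at hypoxia.

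Cd163, the scavenger receptor for complexes of haemoglobin and haptoglobin, held 2.25, 3.23, 3.31 and 2.58 CPM in Flox normoxia and 5.74, 4.35, 4.47 and 4.22 CPM in KO normoxia. At 12% oxygen it held 3.02, 3.26, 3.22 and 1.79 CPM in Flox libraries, and in KO libraries a minimum, median and maximum of 1.73, 2.68 and 3.16 CPM. KO normoxia was again separate from the other 3 groups. The knockout effect was 0.73 ± 0.22 (adjusted p = 0.0378) at normoxia and -0.14 ± 0.20 (adjusted p = 0.638) at hypoxia. The normoxia call stayed without KO normoxia replicate 2 or 4 and was lost without replicate 1 (0.61) or 3 (0.75), and without Flox normoxia replicate 1 (0.63), 2 (0.79), 3 (0.81) or 4 (0.68). With Y-linked RNA as a covariate it was 0.47, not called.

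Cbr2, a carbonyl reductase used to mark border macrophages, rested on 1 library. It held 2.96, 5.30, 3.26 and 3.56 CPM in Flox normoxia and 3.38, 4.69, 4.74 and 29.1 CPM in KO normoxia, where replicate 4 stood alone. In Flox hypoxia it held 4.34, 3.61, 3.68 and 2.45 CPM and in KO hypoxia a minimum, median and maximum of 2.32, 3.22 and 4.39 CPM. Its log2 fold change at normoxia was 1.48 ± 0.50 (adjusted p = 0.0598), and 0.19 without KO normoxia replicate 4. Without KO normoxia replicate 1 or 2 it was 1.77 or 1.72 and called. At hypoxia it was -0.12 ± 0.44 (adjusted p = 0.876).

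Pf4, a chemokine-like protein also made by megakaryocytes, held 0.612, 1.36, 0.749 and 0.668 CPM in Flox normoxia and 0.704, 1.02, 1.90 and 1.50 CPM in KO normoxia. Flox hypoxia libraries held 1.35, 0.789, 1.45 and 0.862 CPM and KO hypoxia libraries a minimum, median and maximum of 0.574, 0.753 and 0.999 CPM. The groups overlapped, with log2 fold changes of 0.60 ± 0.32 (adjusted p = 0.223) and -0.51 ± 0.28 (adjusted p = 0.201). Lyve1, a hyaluronan receptor of perivascular macrophages that lymphatic endothelium also carries, gave 0.42 ± 0.35 (adjusted p = 0.459) and -0.55 ± 0.30 (adjusted p = 0.207). F13a1, a subunit of coagulation factor XIII, gave 0.18 ± 0.19 (adjusted p = 0.581) and 0.07 ± 0.17 (adjusted p = 0.814), and Ms4a7 gave 0.51 ± 0.48 (adjusted p = 0.532) and 0.49 ± 0.45 (adjusted p = 0.468).

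Hypoxia itself was then compared with normoxia within each genotype. In the controls, no member was called by edgeR, 3 had an unadjusted p below 0.05 and DESeq2 called 0, while 0.0856% of all genes were called, 0.00504% as higher and 0.0806% as lower. The members' median log2 fold change was -0.05, against -0.00 for all genes. In the knockouts, 4 members fell and none rose, with 12.5% of all genes called, 4.76% as higher and 7.77% as lower, and the members' median was -0.31 against 0.02 for all genes. The fallen members were Mrc1 (-0.99 ± 0.20 (adjusted p = 0.00601)), Cd163 (-0.88 ± 0.19 (adjusted p = 0.00853)), Cbr2 (-1.69 ± 0.42 (adjusted p = 0.0164)) and Axl (-0.63 ± 0.20 (adjusted p = 0.0468)). All 7 border genes were negative, with a median of -0.71. This comparison shares its KO normoxia libraries with the knockout comparison at normoxia, so a library high there enters both.

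Mrc1 and Cd163 kept their calls in every single omission and without KO hypoxia replicates 1 to 3 (-0.92 and -0.95). Cbr2 measured -0.40 without KO normoxia replicate 4, not called, and -1.70 (adjusted p = 0.0678) without KO hypoxia replicates 1 to 3. Axl measured -0.31 (adjusted p = 0.120) without those 3. Axl lost its call in 16 of 19 single omissions, with values of -0.72 to -0.53, the call staying without KO hypoxia replicate 4, 5 or 7. Spp1 gave -0.68 ± 0.22 (adjusted p = 0.0525) and was called without Flox normoxia replicate 1 (-0.68) or KO hypoxia replicate 4 (-0.75) or 5 (-0.78). Cd9 gave -0.45 ± 0.16 (adjusted p = 0.0693) and was called without KO normoxia replicate 1 (-0.55) or KO hypoxia replicate 4 (-0.50) or 5 (-0.52).

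Other members came near the threshold in this comparison. Pf4 gave -0.71 ± 0.28 (adjusted p = 0.0992), and -0.91 and called without KO normoxia replicate 1. Cd68 gave -0.46 ± 0.21 (adjusted p = 0.167), and -0.67 and called without KO normoxia replicate 2. Ptprc gave -0.96 ± 0.35 (adjusted p = 0.0762), and -1.20 and called without KO normoxia replicate 4. Lgals3 gave 0.24 ± 0.24 (adjusted p = 0.550), and 0.71 and called without KO normoxia replicate 3. The homeostatic genes had none called in either direction, and their median was -0.10.

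**Figure D4:**
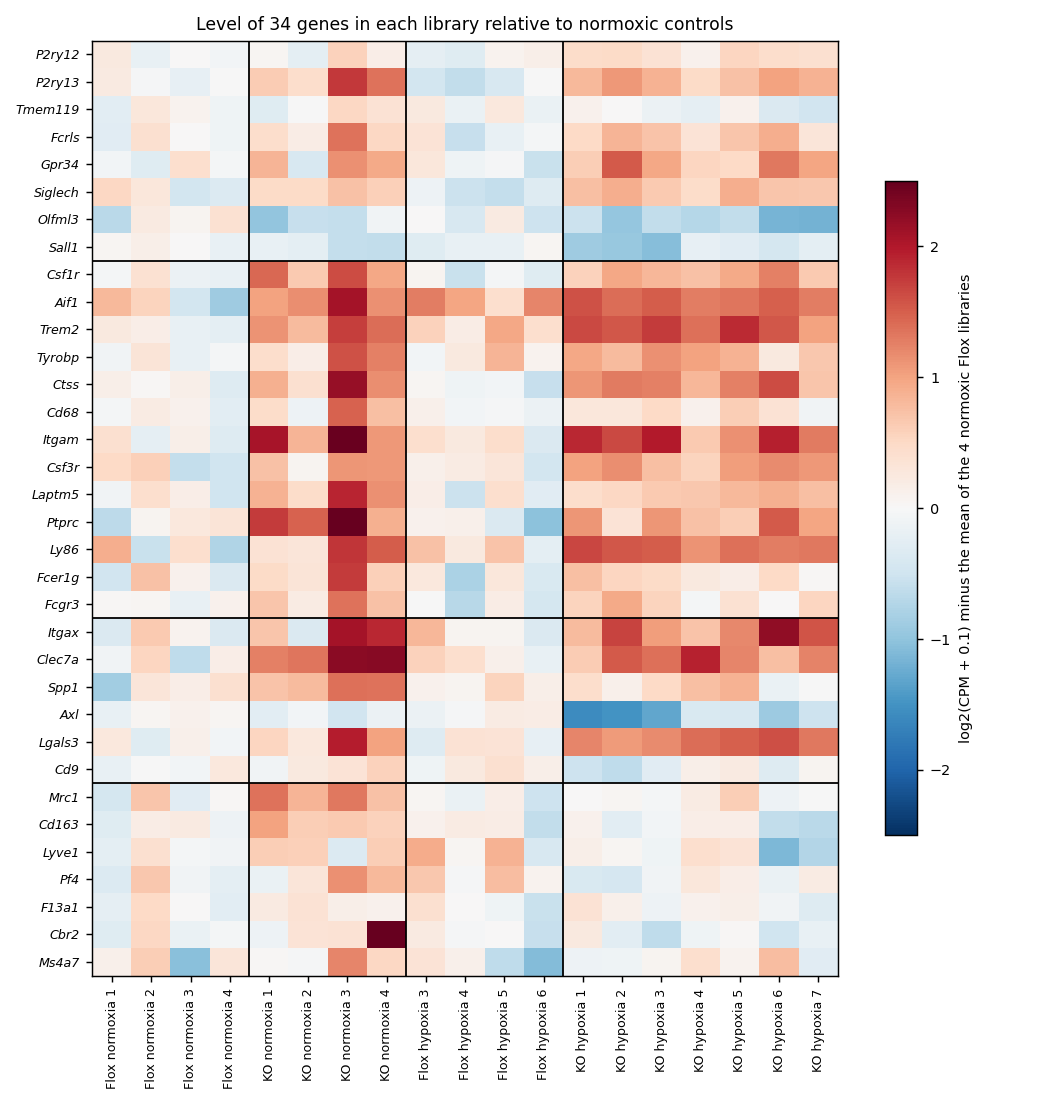
Log2 of CPM + 0.1 for 34 members (rows, by gene group) in each library (columns, by group), minus the mean of the 4 Flox normoxia libraries, with the colour scale ending at 2.5 in either direction. KO normoxia replicate 3 carries the highest value of its group for 24 of the 34, and Mrc1 and Cd163 are above the control mean in KO normoxia and near it in KO hypoxia.

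Whether the knockout effect itself differed between oxygen levels was tested as an interaction. No member was called by edgeR, 9 had an unadjusted p below 0.05 and DESeq2 called 0, while 0.0101% of all genes were called. The members' median was -0.36 against 0.02 for all genes. All 7 border genes were negative with a median of -0.87, and 5 of them were among the 9. Mrc1 measured -0.83 ± 0.31 (adjusted p = 0.346), Cd163 -0.87 ± 0.29 (adjusted p = 0.325), Pf4 -1.11 ± 0.42 (adjusted p = 0.346), Lyve1 -0.97 ± 0.46 (adjusted p = 0.431) and Cbr2 -1.59 ± 0.66 (adjusted p = 0.374). Calls at normoxia that were not calls at hypoxia, or the reverse, are therefore not shown to differ.

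Further genes were read from lists chosen by role, and the part of their RNA from cells other than microglia and macrophages was not tested. For these lists and those of other cells below, the shares of all genes called serve for comparison. They were 6.9% higher and 5.27% lower at normoxia, and 10.4% higher and 9.37% lower at hypoxia. Without KO hypoxia replicates 1 to 3 they were 17.8% at normoxia and 8.7% at hypoxia, in either direction. Of 17 other microglial genes, 6 rose at normoxia, and 7 rose and 3 fell at hypoxia, the lowest log2 fold change there being -1.02. Their summed level went the other way at hypoxia, with 487 to 617 CPM in Flox and 228 to 426 CPM in KO libraries. In KO hypoxia replicates 4 to 7 it was 345 to 426 CPM. At normoxia it overlapped, at 516 to 705 CPM in Flox and 512 to 664 CPM in KO libraries. The 3 genes named next all rose. Cx3cr1, the microglial receptor for fractalkine, gave 1.34 ± 0.24 (adjusted p = 0.00213) at normoxia and 1.50 ± 0.22 (adjusted p = 0.000246) at hypoxia. Lag3, an inhibitory immune receptor, gave 1.09 ± 0.19 (adjusted p = 0.00155) and 1.12 ± 0.17 (adjusted p = 0.000299), and Slco2b1, an organic anion transporter, 0.73 ± 0.17 (adjusted p = 0.00948) and 0.94 ± 0.15 (adjusted p = 0.000516). Without KO hypoxia replicates 1 to 3, all 3 were called at hypoxia (1.51, 1.15 and 0.82), and the counts in the list were 3 higher and 2 lower of 16 tested.

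Of 9 transcription factors of the lineage, 1 fell at normoxia, and 4 rose and 1 fell at hypoxia. Spi1, which encodes PU.1, gave 0.75 ± 0.25 (adjusted p = 0.0519) at normoxia and 1.15 ± 0.23 (adjusted p = 0.00230) at hypoxia. Irf8, its partner in microglia, gave 0.52 ± 0.22 (adjusted p = 0.125) and 1.12 ± 0.20 (adjusted p = 0.00121). Cebpa, a myeloid factor that other cell types also carry, fell at both oxygen levels, with -1.25 ± 0.16 (adjusted p = 0.000167) and -1.52 ± 0.13 (adjusted p = 2.31e-06). When KO hypoxia replicates 1 to 3 were left out, 3 rose and 1 fell at hypoxia, with 1.03 for Spi1, 1.08 for Irf8 and -1.51 for Cebpa. In that fit 2 rose and 1 fell at normoxia.

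Among 7 tested ligands and growth factors, 2 rose at normoxia and 1 at hypoxia. Cx3cl1, the fractalkine that Cx3cr1 binds, gave 1.53 ± 0.35 (adjusted p = 0.00980) and 1.42 ± 0.32 (adjusted p = 0.00584), and 1.07 (adjusted p = 0.0497) at hypoxia without KO replicates 1 to 3. Pros1, a bridging ligand of Axl, gave 0.80 ± 0.18 (adjusted p = 0.00979) and -0.09 ± 0.16 (adjusted p = 0.741). Tgfb1, which maintains microglial identity, gave 0.54 ± 0.24 (adjusted p = 0.141) and 0.41 ± 0.21 (adjusted p = 0.175). Of 9 tested genes that relay Trem2 and related receptors, 3 rose at normoxia and 5 at hypoxia, or 2 at hypoxia without KO replicates 1 to 3. The adaptor Blnk gave 1.41 ± 0.36 (adjusted p = 0.0182) and 1.25 ± 0.32 (adjusted p = 0.0123), and 0.80 (adjusted p = 0.108) without those 3. The lipid phosphatase Inpp5d gave 0.54 ± 0.24 (adjusted p = 0.145) and 0.98 ± 0.22 (adjusted p = 0.00536), and the kinase Lyn 0.65 ± 0.18 (adjusted p = 0.0275) and 0.62 ± 0.16 (adjusted p = 0.0144).

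Of 13 further disease-associated genes tested, 4 rose and 1 fell at normoxia, and 3 rose and 3 fell at hypoxia. Gpnmb, a glycoprotein of lipid-laden phagocytes, gave 1.88 ± 0.26 (adjusted p = 0.000329) and 1.53 ± 0.24 (adjusted p = 0.000429), and lipoprotein lipase, Lpl, gave 1.27 ± 0.31 (adjusted p = 0.0147) and 1.36 ± 0.28 (adjusted p = 0.00354). The fatty-acid-binding protein gene Fabp5 gave -0.38 ± 0.12 (adjusted p = 0.0453) and -0.46 ± 0.11 (adjusted p = 0.00664). Without KO hypoxia replicates 1 to 3, 2 rose and none fell at hypoxia, and 5 rose and 1 fell at normoxia. Of 8 further border macrophage genes tested, none was called at normoxia and 2 had an unadjusted p below 0.05. At hypoxia 2 fell, Cd38 (-0.81 ± 0.19 (adjusted p = 0.00765)) and Colec12 (-0.78 ± 0.20 (adjusted p = 0.0132)). When KO hypoxia replicates 1 to 3 were left out, 1 of them was called at hypoxia, with -0.54 for Cd38 and -0.77 for Colec12. In that fit 1 gene of this list was called higher at normoxia.

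Markers of monocytes and neutrophils were low, while those of lymphocytes and dendritic cells were measured at higher levels. Of 5 monocyte genes 1 was tested, Ccr2, at 2.08 ± 0.77 (adjusted p = 0.0819) and 1.37 ± 0.61 (adjusted p = 0.120), and their summed level was 0.0187 to 0.13 CPM in Flox normoxia, 0.144 to 0.775 CPM in KO normoxia, 0.0526 to 0.211 CPM in Flox hypoxia and 0.251 to 0.481 CPM in KO hypoxia. Of 7 neutrophil genes none was tested, 1 was at 0 in every library and their sum did not exceed 0.333 CPM. T and NK cell markers had sums of 1.21 to 5.17 CPM over all libraries, with 1 of 3 tested genes lower at both oxygen levels. B cell markers had sums of 0.689 to 3.86 CPM, with the 1 tested gene lower at both, and dendritic cell markers 3.67 to 6.97 CPM, with 1 of 3 tested higher at hypoxia. In the fit without KO hypoxia replicates 1 to 3, a dendritic cell gene was called higher at normoxia and none at hypoxia. The monocyte sum moved in the same direction as the myeloid genes, and its part in their results was not tested.

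Markers of vessel and brain cells also moved between the groups. Of 7 mural cell genes, 6 rose at normoxia and 4 at hypoxia, and their sum was 97.3 to 186 CPM in Flox normoxia, 275 to 332 CPM in KO normoxia, 109 to 175 CPM in Flox hypoxia and 146 to 240 CPM in KO hypoxia. Sums of the mural and of the border macrophage genes were both highest in KO normoxia, for the border genes only with Cbr2 in KO normoxia replicate 4 counted in. At hypoxia, 1 mural gene was called higher without KO replicates 1 to 3. Of 7 endothelial genes 4 rose and 1 fell at normoxia, and 1 rose at hypoxia, with the same counts without those 3 libraries. Neuronal markers rose for 1 of 7 genes at normoxia and 4 at hypoxia, or 4 at normoxia and none at hypoxia without the 3. Oligodendrocyte lineage genes had 0 of 7 called at normoxia and 2 higher at hypoxia, or none at either without the 3. Of 9 astrocyte genes, 1 rose at normoxia, and 1 rose and 4 fell at hypoxia, or 1 rose and 2 fell at hypoxia without the 3. The part of these shifts in the members' results was not tested.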

How the data were processed

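The authors deposited whole-number read counts per gene and RPKM values per gene. Per the submitters' processing notes, reads were aligned with HISAT2 to GRCm39 and edgeR was used. The counter, its strand setting and the treatment of read pairs and shared reads are not given in the sources used here, and 65.9% of the counts from 2 to 21 were even. Libraries were made with a stranded mRNA kit per the labels' protocols. Identifiers were matched to symbols for 52083 of 55416 genes. Deposited counts were filtered with filterByExpr, scaled by TMM and fitted over all 19 libraries with edgeR 4.0.16 (R 4.3.3) by quasi-likelihood with robust dispersions and 1 coefficient per group. Adjusted p-values are Benjamini-Hochberg values over 19854 genes, with a threshold of 0.05. Errors are approximate standard errors of log2 fold changes unless named SD. They were computed as the size of the fold change over the square root of the test's F value. CPM are counts per TMM-scaled library. The fit recovered most known changes in simulated data with the same dispersion for every gene and no library standing apart. The real libraries differ from these settings, so this checks the code and not the calls.

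The members, lists and tests were chosen with earlier results of these data known. Members named with values in every library are those that define a cell state and the 3 with the smallest p in each group of genes. Nothing in the labels says that replicates are separate animals, and the p-values then reflect variation among libraries, which may be technical. Alternatives were RLE scaling, DESeq2 1.42.0, 2 other filters on low counts, fits of 2 groups alone, replicate blocks and single omissions, and, added after the data were seen, omission of KO hypoxia replicates 1 to 3, Y-linked RNA as a covariate and omission of the 5 libraries low in it. Replicate numbers were checked for pairing by correlating deviations from group means. For Flox and KO at hypoxia, numbers 3 to 6 gave 0.268, 0.116, 0.118 and 0.124. The other comparisons gave -0.255 to 0.16 and were not taken to pair. All but the first of the hypoxia values lie within that range, so pairing at hypoxia is not shown, and the labels do not state it. The main fit holds no pairing, and fits with replicate pairs are alternatives only. Promoter sequences are RefSeq's (GRCm38.p6), a different build from that of the counts, and no coordinate was moved between builds. There was no promoter entry for Gpr34, Lyve1, Csf1r, Tyrobp and Tmem119.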

Additional observations from a re-analysis of the deposited data

Results flagged for a closer look

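In 140 groups of 4 to 7 libraries, one for each member and group, the highest or lowest library was checked for a gap to its neighbour that is large for the range of the group (Dixon's criterion at 95%). There were 11 such values, some of them in the same library. For independent values with a normal spread, chance alone gives about 1 in 20 groups, and whether these CPM meet that was not tested.

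Single KO normoxia libraries accounted for 5. Aif1 measured 2.44 CPM in KO normoxia replicate 3, with 1.10 to 1.25 CPM in the others. Fcer1g measured 4.61 CPM in the same library, with 1.64 to 2.01 CPM in the others. Lyve1 was low there, at 1.47 CPM against 2.92 to 2.94 CPM. Cd163 measured 5.74 CPM in KO normoxia replicate 1, against 4.22 to 4.47 CPM. Cbr2 measured 29.1 CPM in KO normoxia replicate 4, against 3.38 to 4.74 CPM.

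At hypoxia, P2ry12 was low in KO replicate 4, at 6.53 CPM against 7.88 to 8.83 CPM. Mrc1 was high in KO replicate 5, at 6.28 CPM against 3.72 to 4.67 CPM. Spp1 measured 79.4 CPM in Flox replicate 5, against 55.9 to 59.4 CPM. Cd163 was low in Flox replicate 6, at 1.79 CPM against 3.02 to 3.26 CPM. The sparse gene Cst7 measured 0.106 CPM in Flox replicate 6, against 0 to 0.0175 CPM, and 0.0952 CPM in KO replicate 7, against 0 to 0.0334 CPM. These last 2 rest on a few counts each.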

How the results depend on the processing

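No called member changed direction under any alternative run. At normoxia, 16 members were called. The replicate block, fitted though these numbers were not shown to pair, gave 9 (7 higher, all among the 16, and 2 lower, Olfml3 at -0.57 and Sall1 at -0.42, adjusted p = 0.0306 and 0.0292) with 9.12% of all genes called, and leaving out the 5 libraries low in Y-linked RNA gave 1, with 2 Flox normoxia libraries left. Single omissions gave 9 to 22. At hypoxia, 18 were called, 14 with the replicate block, 8 without KO hypoxia replicates 1 to 3 and 6 without the 5 libraries low in Y-linked RNA. The shares of all genes called were 19.7%, 13.7%, 8.7% and 7.17%, in that order. Single omissions gave 11 (without Flox hypoxia replicate 6, with 13% of all genes called) to 19. For hypoxia against normoxia in the knockouts, 4 were called, with 12.5% of all genes. A fit of these groups alone gave 2, with 5.09% of all genes, and the replicate block gave 0, with 0.00518% of all genes. Omission of KO hypoxia replicates 1 to 3 gave 2, with 7.15% of all genes, and omission of the 5 libraries low in Y-linked RNA gave 2, with 5.17%. Single omissions gave 3 to 6, with 7.35% to 13.7% of all genes called. The cause of these moves was not tested, beyond there being fewer libraries in each omission. Hypoxia in the controls and the interaction gave 0 under every alternative run, and the interaction had no fit of groups alone. RLE scaling changed no call. DESeq2 gave 19, 19 and 6 where edgeR gave 16, 18 and 4, and it called 16.9%, 24.6% and 17.7% of all genes in these comparisons.

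Depth limits Cst7, Itgax and Clec7a most, with values at or near 0 in several controls. Each library is 1 value, 2 labelled controls at hypoxia are not analysed here, and the fits cannot separate cell number from RNA per cell.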
